A study of Mus musculus with 12 samples.

Results

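The data described here are the kidney RNA levels of 10 genes of the interleukin-6 (IL-6) cytokine family: the ligands Il6, Lif, Clcf1 and Il11, the receptor chains Il6ra, Il6st, Lifr, Osmr and Il11ra1, and the transcription factor Stat3. They were picked by gene name from 35275 genes in the table of read counts, and each name had a single row. Kidney tissue of 12 C57BL/6J mice aged 6 months was sequenced as poly(A) RNA. Each of 3 groups had 4 mice, 2 females and 2 males. WT mice carried neither alteration. RC/RC mice were homozygous for the RC allele of Pkd1, a knock-in missense change that lowers polycystin-1 function. They are used to study autosomal dominant polycystic kidney disease, and their cysts enlarge with age. RC/RC:Casp1KO mice carried the same Pkd1 alleles and were in addition homozygous for a TALEN-made deletion in Casp1 that removes the codon of the active-site cysteine and a splice donor, so both RC/RC groups share the Pkd1 change. The Casp1 group represents 1 deletion allele and has no counterpart on the wild-type Pkd1 background, and the lack of Casp1 is body-wide. The column names give mouse numbers but not sexes, and sex was not read from the counts, so females and males were analysed together. The paper reported that loss of Casp1 restrained cystic disease in females and not in males, a split these pooled groups cannot show. The mice of each group are lettered A to D in the order of the mouse numbers. Values for single mice follow that order. Between 18019819 and 24869454 reads were counted per mouse. Levels are given as counts-per-million values (CPM) of those reads, scaled by TMM factors, which correct for differences in library composition. Before that scaling, 3 reads in 1 mouse are worth 0.121 to 0.166 CPM.

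Cytokines of the IL-6 family signal through the shared receptor chain gp130, the product of Il6st. A ligand brings gp130 together with a second chain, either gp130 itself, as with IL-6 and IL-11 after they bind their own alpha receptors, or LIFR or OSMR. JAK kinases on the receptor tails then phosphorylate STAT3, which enters the nucleus and switches on target genes, among them Socs3, whose product inhibits the same receptors. In the kidney the family is known for tubular injury responses, fibroblast activation and crosstalk with infiltrating leukocytes, and active STAT3 has been described in cyst-lining epithelium.

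Promoter sequences are shown for the 3 members that were higher in RC/RC than in WT kidneys (Lif, Osmr and Stat3) and for the feedback gene Socs3. Each is the RefSeq window of mm10 (GRCm38.p6) from 250 bases before to 50 bases after the annotated start, written 5′ to 3′ on the strand of the gene. Capitals mark a match to a STAT-type motif, TTCNNNGAA, or to an AP-1-type motif, TGANTCA; both read as themselves on the other strand, so 1 search covers both strands, and they do not overlap in these windows. The windows are Lif at chr11:4257318-4257617 (plus strand), Osmr at chr15:6874264-6874563 (minus strand), Stat3 at chr11:100939491-100939790 (minus strand) and Socs3 at chr11:117969317-117969616 (minus strand).
Lif: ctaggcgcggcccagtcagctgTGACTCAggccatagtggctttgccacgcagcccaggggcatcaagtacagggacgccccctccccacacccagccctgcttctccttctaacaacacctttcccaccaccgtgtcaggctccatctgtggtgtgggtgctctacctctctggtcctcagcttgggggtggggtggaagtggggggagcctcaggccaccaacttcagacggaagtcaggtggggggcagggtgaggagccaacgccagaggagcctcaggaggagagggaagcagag
Osmr: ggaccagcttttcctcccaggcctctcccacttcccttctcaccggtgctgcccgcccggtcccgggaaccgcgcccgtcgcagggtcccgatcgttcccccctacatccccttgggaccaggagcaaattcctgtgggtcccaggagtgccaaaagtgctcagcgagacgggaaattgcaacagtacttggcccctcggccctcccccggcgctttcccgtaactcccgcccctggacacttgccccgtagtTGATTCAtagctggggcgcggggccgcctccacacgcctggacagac
Stat3: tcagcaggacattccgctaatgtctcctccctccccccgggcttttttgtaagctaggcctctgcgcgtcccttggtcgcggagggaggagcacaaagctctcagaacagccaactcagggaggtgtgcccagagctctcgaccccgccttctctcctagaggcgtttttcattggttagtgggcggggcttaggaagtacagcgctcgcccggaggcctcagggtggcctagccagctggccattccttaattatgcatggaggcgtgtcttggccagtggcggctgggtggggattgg
Socs3: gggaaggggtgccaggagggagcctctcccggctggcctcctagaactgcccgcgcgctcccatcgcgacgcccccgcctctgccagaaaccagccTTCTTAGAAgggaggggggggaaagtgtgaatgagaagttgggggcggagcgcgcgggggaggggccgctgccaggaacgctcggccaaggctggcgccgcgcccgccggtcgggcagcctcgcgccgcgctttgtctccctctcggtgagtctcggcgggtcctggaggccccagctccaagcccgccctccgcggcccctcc
The Socs3 window held TTCTTAGAA, beginning 154 bases before the start. The Lif window held TGACTCA from base -228 and the Osmr window held TGATTCA from base 4 after the start, whereas the Stat3 window held neither motif. Of the 10 members, 9 had an entry (12 promoters in all), and Clcf1 had none. The AP-1-type letters stood in 4 of the 12, also in those of Il6 and Il11, against 7.81% of all 32851 mouse promoters. The STAT-type letters stood in 0 of the 12, against 8.30% of all promoters. These letter matches are descriptions of the windows only.

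Casp1 itself was read first, as a check of the labels. Its level was 1.51 CPM in WT (range 1.29 to 2.05), 3.51 CPM in RC/RC (2.62 to 4.24) and 0.693 CPM in RC/RC:Casp1KO kidneys (0.382 to 1.06), and the last group lay below both others in all 4 mice. It was higher in RC/RC than in WT (log2 fold change 1.21, SE 0.25; adjusted p = 0.0142) and lower in RC/RC:Casp1KO than in RC/RC (-2.35, SE 0.32; adjusted p = 0.00514) by the quasi-likelihood test of edgeR, adjusted by Benjamini-Hochberg over all genes, the test used for every comparison here, with calls at an adjusted p under 0.05. In RC/RC:Casp1KO against WT, Casp1 was not called (log2 fold change -1.12, edgeR adjusted p = 0.128). The RC/RC:Casp1KO mice still had 10 to 23 Casp1 reads each. The RNA of Pkd1 averaged 53.0 CPM in WT, 55.2 CPM in RC/RC and 71.6 CPM in RC/RC:Casp1KO kidneys and was called in no comparison. The knock-in changes the protein, so the Pkd1 RNA level does not check the genotype. Nephron markers identified the tissue: the summed level of 5 proximal tubule markers was 9557 CPM and that of 4 podocyte markers 521 CPM in WT.

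A pair of libraries stood apart from the rest of their groups. RC/RC mouse B had a summed level of fat markers (Adipoq, Plin1, Cidec and Fabp4; most abundant Fabp4) of 875 CPM, against 70.8 to 123 CPM in the other RC/RC mice and 40.6 to 85.6 CPM in all others, and the highest level of fibroblast markers, 1544 CPM. RC/RC:Casp1KO mouse C had leukocyte markers at 153 CPM, against 56.3 to 74.5 CPM in the other 3 mice of its group, and injured tubule markers at 337 CPM, against 182 to 203 CPM. Some of the values that moved when either mouse was left out are given with and without it. The sex of either mouse was not determined. In bulk kidney tissue, fewer cells of a type and less RNA per cell cannot be told apart.

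RC/RC kidneys were compared with WT kidneys to see how the family stands in the cystic kidney. Lif, Osmr and Stat3 rose, by 13.8-fold, 3.09-fold and 1.44-fold, and their RC/RC and WT mice did not overlap, as was so in this direction for 12.6% of the genes tested. The other 5 members that could be tested did not pass the threshold: Clcf1, Il6ra and Il6st had positive log2 fold changes, and Lifr and Il11ra1 had negative ones. Il6 and Il11 had too few reads for the fit. So 3 of 8 tested members were called, all higher, where 12.9% of the 15243 genes tested were called and 9.76% were called higher; the median log2 fold change of the 8 was 0.46, against -0.02 over all genes tested. Of all calls, 75.4% were higher, against 86.1% when the counts were scaled by library size alone and 64.0% with DESeq2. All 3 calls held whichever mouse was left out.

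Lif encodes leukaemia inhibitory factor, a ligand of the LIFR-gp130 pair. Its level was 0.381, 0.476, 0.453 and 0.518 CPM in the WT mice and 7.57, 8.05, 5.64 and 4.33 CPM in the RC/RC mice. It was 0.831, 1.53, 5.71 and 1.91 CPM in the RC/RC:Casp1KO mice. Every RC/RC mouse was thus above every WT mouse, while mouse C of the Casp1 group lay within the RC/RC range and the other 3 lay between the WT and RC/RC ranges. The WT values rest on 8 to 11 reads each, and the RC/RC values on 101 to 198. RC/RC against WT, the log2 fold change was 3.79 (SE 0.28, interval 3.16 to 4.42; edgeR adjusted p = 0.000138).

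Clcf1 encodes cardiotrophin-like cytokine factor 1, which signals through gp130, LIFR and the CNTF receptor. It was 3.19, 3.48, 7.69 and 6.60 CPM in WT mice, 8.72, 10.7, 9.61 and 7.33 CPM in RC/RC, and 9.04, 9.09, 19.1 and 11.3 CPM in RC/RC:Casp1KO mice. RC/RC and WT overlapped by 1 mouse on each side, and the log2 fold change was 0.79 (SE 0.30; edgeR adjusted p = 0.113). The highest value was again that of RC/RC:Casp1KO mouse C.

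Il6 and Il11, the ligands that use their own alpha receptors, were close to the limit of detection. Il6 had 1, 0, 1 and 0 reads in WT, 7, 6, 1 and 0 in RC/RC, and 2, 1, 1 and 4 in RC/RC:Casp1KO mice. Il11 had 0, 4, 2 and 1 reads in WT, 12, 40, 9 and 1 in RC/RC, and 4, 2, 5 and 7 in RC/RC:Casp1KO mice. The groups overlapped for both genes, and the most Il11 reads came from RC/RC mouse B. Exact two-sided permutation tests over the 70 assignments of 4 against 4 mice, which cannot go below p = 0.0286, gave p = 0.171 for Il6 and p = 0.114 for Il11 in RC/RC against WT. When RC/RC mouse D, with a single Il11 read, was left out, Il11 had enough reads for the fit and was called higher (log2 fold change 3.49, edgeR adjusted p = 0.0292). It could also be fitted without any 1 WT mouse and with no filter on low counts, and it was called in none of these 5 fits (log2 fold changes from 2.69 to 3.81, edgeR adjusted p from 0.0916 to 0.208). A change of Il6 was not detectable at this depth.

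**Figure D1:**
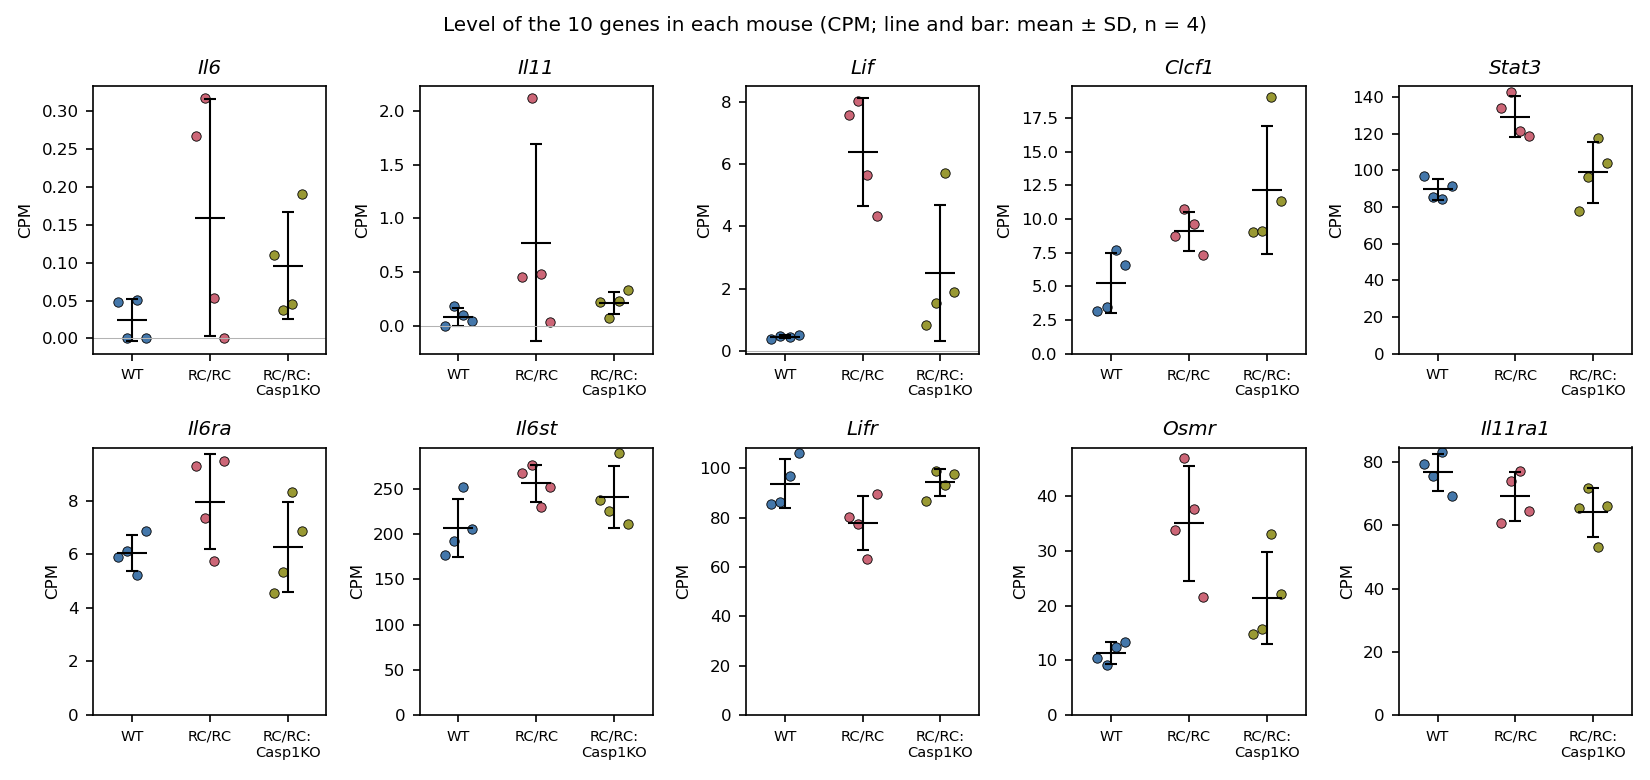
Level of each of the 10 genes in each mouse, in CPM on a linear axis, by group; points are mice and the line and bar are the mean ± SD (n = 4). Lif, Osmr and Stat3 are higher in all 4 RC/RC mice than in all 4 WT mice, and 1 RC/RC:Casp1KO mouse (mouse C) reaches 5.71 CPM of Lif.

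Among the receptor chains, Osmr, which pairs with gp130 to bind oncostatin M, was the sole one called. It was 10.4, 9.10, 12.5 and 13.4 CPM in WT mice, 33.9, 47.1, 37.7 and 21.5 CPM in RC/RC, and 14.9, 15.7, 33.2 and 22.1 CPM in RC/RC:Casp1KO mice. All RC/RC mice were above all WT mice, and the Casp1 group lay above WT in all 4 mice but overlapped RC/RC. The log2 fold change of RC/RC against WT was 1.63 (SE 0.23, interval 1.11 to 2.15; edgeR adjusted p = 0.00259).

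Il6st, the shared gp130 chain, averaged 207 ± 32.3 CPM (SD, n = 4) in WT, 256 ± 20.3 CPM in RC/RC and 241 ± 34.2 CPM in RC/RC:Casp1KO kidneys. Lifr, the LIF receptor chain, averaged 93.9 ± 9.82, 77.7 ± 10.9 and 94.3 ± 5.54 CPM in the same order. The 3 groups overlapped for both. The interval of the RC/RC against WT difference ran from -0.01 to 0.62 for Il6st (log2 fold change 0.31, edgeR adjusted p = 0.178) and from -0.57 to 0.02 for Lifr (-0.27, edgeR adjusted p = 0.200). Lif and Osmr thus rose in kidneys in which neither partner chain passed the test.

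Il6ra, the IL-6 alpha receptor, averaged 6.04 ± 0.679 CPM in WT, 7.97 ± 1.77 CPM in RC/RC and 6.27 ± 1.68 CPM in RC/RC:Casp1KO kidneys; the RC/RC against WT log2 fold change was 0.40 (interval -0.04 to 0.84; edgeR adjusted p = 0.205). Il11ra1, the IL-11 alpha receptor, averaged 76.9 ± 5.85, 69.2 ± 7.68 and 64.1 ± 7.78 CPM, with a log2 fold change of -0.15 (interval -0.40 to 0.09; edgeR adjusted p = 0.380). The values of Il11ra1 are uncertain: its span in the table, 4:41699989-41769474, overlaps 6 other genes, and a near-identical copy, Il11ra2, was listed at 0 reads in all 12 mice.

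Stat3, the transcription factor downstream of gp130, was 96.7, 85.6, 84.3 and 91.4 CPM in WT mice, 134, 143, 122 and 119 CPM in RC/RC mice, and 77.7, 96.1, 117 and 104 CPM in RC/RC:Casp1KO mice. Every RC/RC mouse was above every mouse of both other groups. The log2 fold change of RC/RC against WT was 0.53 (SE 0.11, interval 0.29 to 0.77; edgeR adjusted p = 0.0122). Stat3 shares 72 bases with Stat5a on the opposite strand, and whether reads were counted by strand is not given in the sources used here. Stat5a averaged 24.3 CPM in WT kidneys, against 17.4 CPM in those of RC/RC mice, a difference in the other direction.

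Per unit of gene length, as fragments-per-kilobase-per-million values (FPKM, computed here from the counts and the deposited gene lengths), the order in WT kidneys was Il11ra1 (28.0), Il6st (22.6), Stat3 (14.1), Lifr (9.23), Osmr (1.96), Il6ra (1.71), Clcf1 (1.40), Lif (0.108), Il11 (0.063) and Il6 (0.022). Receptor chains and Stat3 therefore made up the upper end and ligands the lower end. In RC/RC kidneys Il6st (30.0) had the highest mean, with mice that overlapped those of Il11ra1, Osmr reached 6.52, close to Lifr at 8.16, and Lif reached 1.63. WT mice overlapped between Il11ra1 and Il6st, among Osmr, Il6ra and Clcf1, between Lif and Il11, and between Il11 and Il6, so the order of these neighbours is not fixed by the data; Lif lay above Il6 in every WT mouse.

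**Figure D2:**
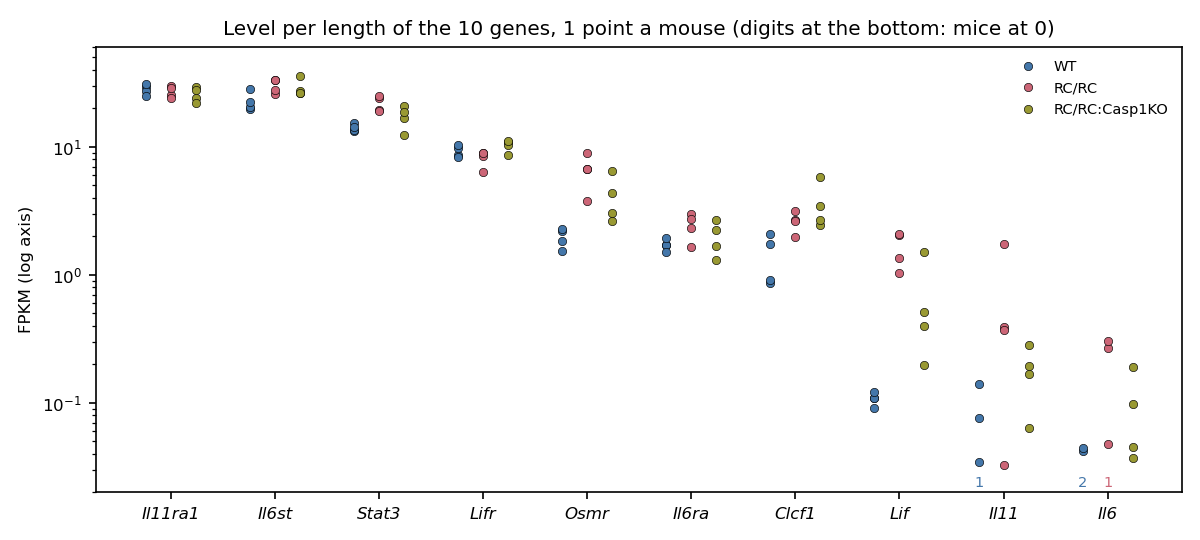
FPKM of the 10 genes in each mouse on a log axis, genes in order of their WT mean, with points for mice coloured by group and digits at the bottom for the number of mice at 0. Receptor chains and Stat3 fill the upper part of the scale and the ligands Lif, Il11 and Il6 the lowest, and Lif moves from a mean of 0.108 in WT to 1.63 in RC/RC kidneys.

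RC/RC:Casp1KO kidneys were compared with RC/RC kidneys to ask whether loss of Casp1 changed the family on the same Pkd1 background. No member passed the threshold (0 of 8 by edgeR, where 11.6% of the 15428 genes tested were called), while Lif, Osmr and Stat3 had an unadjusted p under 0.05, all with lower values in RC/RC:Casp1KO; 16.4% of all genes tested did so in that direction. The median log2 fold change of the 8 was -0.24, against -0.03 over all genes tested. Of all calls, 62.1% were higher, against 82.0% when the counts were scaled by library size alone. The members' result depended on 1 mouse: without RC/RC:Casp1KO mouse C, Lif and Osmr were called lower, in a fit that called 1407 genes. DESeq2 on all 8 mice called Lif (adjusted p = 0.0348) and Stat3 (adjusted p = 0.0448), and 3207 genes in all, where edgeR called 1797. These values share their RC/RC mice with the comparison above, so the directions in both are not independent of each other.

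Lif averaged 6.40 ± 1.73 CPM in RC/RC and 2.49 ± 2.19 CPM in RC/RC:Casp1KO kidneys (log2 fold change -1.37, SE 0.51, interval -2.50 to -0.23; edgeR adjusted p = 0.103). Mouse C, at 5.71 CPM, was the only mouse of the Casp1 group within the RC/RC range, which began at 4.33 CPM. Without it the log2 fold change was -2.16 (edgeR adjusted p = 0.0120), and without both it and RC/RC mouse B it was -1.98 (edgeR adjusted p = 0.0255).

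Osmr averaged 35.1 ± 10.6 CPM in RC/RC and 21.5 ± 8.43 CPM in RC/RC:Casp1KO kidneys (log2 fold change -0.72, SE 0.29, interval -1.36 to -0.07; edgeR adjusted p = 0.126). The groups overlapped through mice C and D of the Casp1 group, at 33.2 and 22.1 CPM, and RC/RC mouse D, at 21.5 CPM. Without mouse C it fell by 1.00 on the log2 scale (edgeR adjusted p = 0.0482), but with RC/RC mouse B also left out Osmr was not called (-0.78, edgeR adjusted p = 0.105). Stat3 averaged 129 ± 11.2 CPM in RC/RC and 98.7 ± 16.5 CPM in RC/RC:Casp1KO kidneys (log2 fold change -0.40, SE 0.13, interval -0.70 to -0.10; edgeR adjusted p = 0.0809). Its groups did not overlap, which held in this direction for 8.67% of all genes tested, and leaving out any 1 mouse gave log2 fold changes from -0.48 to -0.30.

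None of the remaining tested members had an unadjusted p under 0.05. Clcf1 had a log2 fold change of 0.41 (edgeR adjusted p = 0.289), which was 0.11 without RC/RC:Casp1KO mouse C, and Lifr one of 0.27 (edgeR adjusted p = 0.165), both above 0. Il6ra (-0.36; -0.52 without mouse C), Il11ra1 (-0.12; 0.04 without RC/RC mouse B and RC/RC:Casp1KO mouse C) and Il6st (-0.10; -0.19 without mouse C) lay below 0, and the interval for Il6st was -0.39 to 0.19. Il6 and Il11 gave exact permutation p = 0.457 and p = 0.257.

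**Figure D3:**
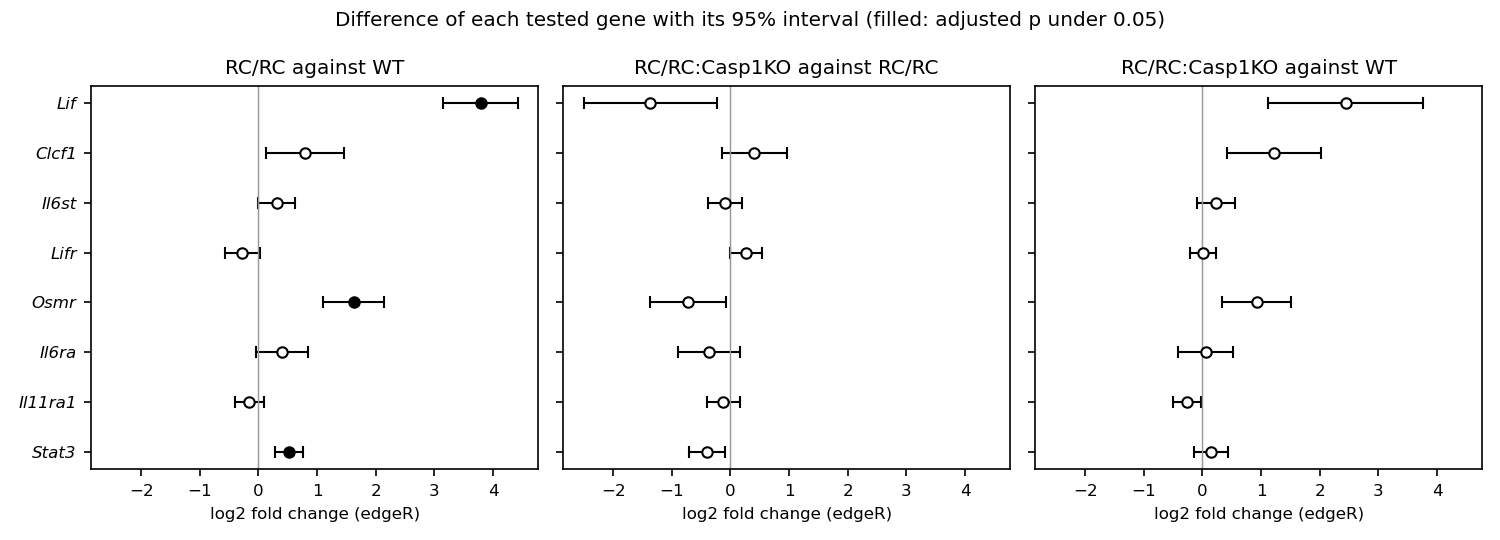
log2 fold change of the 8 tested members with 95% intervals in each of the 3 comparisons (edgeR quasi-likelihood fit); filled points have an adjusted p under 0.05. Filled points appear for Lif, Osmr and Stat3 in RC/RC against WT and for no member in the other comparisons; the Lif interval lies below 0 in RC/RC:Casp1KO against RC/RC and above 0 against WT.

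RC/RC:Casp1KO against WT shows how far the family stood from normal kidney in mice with both changes. No member was called by edgeR (0 of 8, where 2.03% of the 15346 genes tested were called), and 4 had an unadjusted p under 0.05, where 21.8% of all genes did. Of all calls 55.9% were higher, against 79.8% with library size alone, which also moved the median log2 fold change of all genes from 0.01 to 0.14. Lif, Osmr and Clcf1 were higher than in WT in all 4 mice without overlap, as were 7.4% of all genes tested. Their log2 fold changes were 2.44 for Lif (SE 0.58, interval 1.12 to 3.76; adjusted p = 0.0739), 0.93 for Osmr (SE 0.26, adjusted p = 0.106) and 1.22 for Clcf1 (SE 0.35, adjusted p = 0.115) by edgeR. DESeq2 called all 3, and 1366 genes in all, where edgeR called 311. Once RC/RC:Casp1KO mouse A, the lowest of its group for Lif, was left out, edgeR called Lif (2.72, adjusted p = 0.0378) and 547 genes in all. Without mouse C of that group, which stood apart, the Lif value was 1.63 (edgeR adjusted p = 0.0923), that of Osmr 0.63 and that of Clcf1 0.91.

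Stat3 was 0.15 log2 units above WT (interval -0.14 to 0.43; edgeR adjusted p = 0.512; 0.05 without mouse C), Il6st 0.23 (adjusted p = 0.373; 0.13 without mouse C) and Il6ra 0.06 (adjusted p = 0.887; -0.11 without mouse C), while Il11ra1 had a log2 fold change of -0.26 (adjusted p = 0.201, unadjusted p = 0.0359; -0.18 without mouse C). The Lifr difference of 0.01 had an interval of -0.20 to 0.23 and turned negative under DESeq2 and RLE scaling. Il6 gave an exact permutation p = 0.171 and Il11 p = 0.0857.

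The other ligands and receptors of the family were read from a list of 11 genes. In RC/RC against WT, 4 could be tested and 2 were called, both higher, where 9.76% of all genes tested were called higher: Ebi3, a subunit of IL-27, and Il27ra, a receptor chain that pairs with gp130. Il27ra was 1.67, 0.667, 1.41 and 1.46 CPM in WT mice, 4.59, 6.09, 3.60 and 2.74 CPM in RC/RC mice, and 1.55, 1.18, 4.56 and 2.67 CPM in RC/RC:Casp1KO mice. All RC/RC mice were above all WT mice, and the highest mouse of the Casp1 group was again mouse C. Ebi3 rose by 2.08 log2 units (edgeR adjusted p = 0.0179, but 0.0552 without WT mouse B) and Il27ra by 1.70 (edgeR adjusted p = 0.0124). Oncostatin M itself, the ligand of OSMR, had 4, 20 and 12 reads summed over the WT, RC/RC and RC/RC:Casp1KO mice and could not be tested. Ctf1 (6.44 CPM in WT) and Cntfr (11.8 CPM) were called in no comparison. Of the 4 genes tested in RC/RC:Casp1KO against RC/RC, 0 were called by edgeR (11.6% of all genes tested were), 0 had an unadjusted p under 0.05 and DESeq2 called 0; Ebi3 and Il27ra had log2 fold changes of -0.71 and -0.78 there (-0.99 and -1.24 without mouse C).

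The signal path was read from 11 JAK kinases, adaptors and receptor sheddases. In RC/RC against WT and in RC/RC:Casp1KO against WT edgeR called 0 of them, where 12.9% and 2.03% of all genes tested were called. In each comparison 1 had an unadjusted p under 0.05 (Shc1 and Jak3), where 29.2% and 21.8% of all genes tested did. DESeq2 called 1 and 0 (2900 and 1366 over all genes). The 2 most abundant, Jak1 and Ptpn11, had log2 fold changes of 0.04 and -0.01 in RC/RC against WT, the second of which turned positive with library size scaling (0.08). Grb2, an adaptor gene, was the 1 of these 11 genes called in RC/RC:Casp1KO against RC/RC, in which 11.6% of all genes tested were called and 4.41% called lower; it was lower (-0.40, edgeR adjusted p = 0.0239), a call that was lost without RC/RC mouse B or C, without RC/RC:Casp1KO mouse B or D (adjusted p from 0.0620 to 0.0837) or without RC/RC mouse B and RC/RC:Casp1KO mouse C together (0.112), and also with library size scaling and with limma.

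Of the other STAT genes, 0 of 4 tested were called by edgeR in RC/RC against WT, where 12.9% of all genes tested were; 1 had an unadjusted p under 0.05 (Stat5a, log2 fold change -0.49), where 29.2% did, and DESeq2 called 1. Stat5a (0.47, edgeR adjusted p = 0.0340) and Stat5b (0.39, edgeR adjusted p = 0.0441), 2 of 5 tested, were higher in RC/RC:Casp1KO than in RC/RC kidneys, where 7.23% of all genes tested were called higher. Both calls were lost with limma, that of Stat5a also with library size scaling and that of Stat5b also with no filter. The Stat5a call held only when RC/RC mouse A was the one left out (0.41 to 0.54 over the 8 fits that left out 1 mouse), and the Stat5b call only when RC/RC mouse A or D was (0.32 to 0.43). Stat6, the most abundant other STAT gene, had log2 fold changes of -0.03 in RC/RC against WT, which turned positive with library size scaling (0.07), and 0.12 in RC/RC:Casp1KO against RC/RC.

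Among 15 tested negative regulators of the pathway, Socs3, the feedback inhibitor of gp130, was the one called in RC/RC against WT, a share below the 12.9% of all genes tested that were called. It was 3.10, 1.86, 2.56 and 2.31 CPM in WT mice, 28.1, 41.7, 26.3 and 19.5 CPM in RC/RC, and 4.05, 4.58, 18.7 and 7.72 CPM in RC/RC:Casp1KO mice. The 3 groups did not overlap, with RC/RC highest and WT lowest. Its rise was 11.7-fold (log2 fold change 3.55, SE 0.26; edgeR adjusted p = 0.000132). It fell in RC/RC:Casp1KO against RC/RC (-1.73, SE 0.46; edgeR adjusted p = 0.0422). That call was lost without RC/RC mouse B (-1.48) or C (-1.77) or RC/RC:Casp1KO mouse A (-1.50), B (-1.51) or D (-1.68), with adjusted p from 0.0799 to 0.109, and the fold change was larger without RC/RC:Casp1KO mouse C (-2.40, edgeR adjusted p = 0.00751). It was also lost with library size scaling. Against WT, RC/RC:Casp1KO kidneys had a Socs3 log2 fold change of 1.84 (edgeR adjusted p = 0.0923), or 1.15 without mouse C (edgeR adjusted p = 0.129). Pias3, an inhibitor of STAT3 binding to DNA, was higher in RC/RC:Casp1KO than in RC/RC (0.35, edgeR adjusted p = 0.0495), a call lost in all 8 fits that left out a mouse (adjusted p from 0.0644 to 0.126) and in 4 of 7 other settings. These 2 calls of 15 genes against RC/RC, 1 lower and 1 higher, stand beside 4.41% and 7.23% of all genes tested.

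Genes known as STAT3 targets were read from a list of 30, of which 28 could be tested. The list also holds Socs3, and it was chosen with earlier results of these data known. Its shares of calls and medians therefore describe these genes and do not test STAT3 activity. STAT3 phosphorylation was not measured in these RNA data. In RC/RC against WT, 16 were called higher and 2 lower, where 9.76% and 3.18% of all genes tested were, and the median log2 fold change was 0.99, against -0.02 over all genes. The higher ones included the acute-phase and injury genes Lcn2 (5.54, adjusted p = 6.52e-05), Timp1 (4.91), Lrg1 (1.69) and Fgg (1.26), the transcription factor genes Bcl3 (1.74), Junb (1.55), Myc (1.45), Fos (1.33) and Irf1 (1.00), and the receptor and adhesion genes Tnfrsf12a (1.25), Icam1 (0.96) and Il4ra (0.79), by edgeR. Nnmt (2.50), Birc5 (1.68), Pim1 (0.78) and Socs3 completed them. The 2 lower ones were Pim3, a kinase gene (-1.09), and Vegfa, which encodes an angiogenic factor (-0.79). Leaving out 1 mouse gave 13 to 16 higher and 1 or 2 lower calls. Over all genes these fits gave 954 to 1786 higher and 208 to 654 lower calls, against 1487 and 484 with all mice. Pim1 (0.52 to 0.86) and Fgg (0.78 to 1.40) each kept their call in 2 of 8 such fits, and Fgg also lost it with limma. The Vegfa call was lost without WT mouse C or D or RC/RC mouse B or C (-0.80 to -0.64) and with library size scaling or limma, that of Nnmt without WT mouse B (2.45) or D (2.24), and that of Fos without RC/RC mouse B (1.21). Nnmt was 13.4 CPM in RC/RC mouse B and 2.66 to 3.54 CPM in the other RC/RC mice. Without mouse B its log2 fold change was 1.62 and it was still called. Leaving out RC/RC mouse B also lowered Timp1 to 4.34 and Lrg1 to 1.20, and both were still called.

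In RC/RC:Casp1KO against RC/RC, 26 of the 28 targets had a log2 fold change below 0 (median -0.87, against -0.03 over all genes; -0.61 without RC/RC mouse B and -1.17 without RC/RC:Casp1KO mouse C), and 5 were called lower and 1 higher, where 4.41% and 7.23% of all genes tested were. The lower ones were Nnmt (-2.04; -1.16 without RC/RC mouse B), Socs3 (-1.73), Tnfrsf12a (-1.26), Myc (-1.23) and Junb (-1.06), and the higher one was Vegfa (0.96, edgeR adjusted p = 0.00410). The number called lower is given next with that over all genes in brackets, which was 681 with all mice. It was 11 without RC/RC:Casp1KO mouse C (688) and 10 without RC/RC mouse A (1300). It was 7 without RC/RC mouse D (899) and 3 without RC/RC:Casp1KO mouse B (79). It was 2 without RC/RC mouse B (136) or RC/RC:Casp1KO mouse A (131) or D (58), and 1 without RC/RC mouse C (65). With RC/RC mouse B and RC/RC:Casp1KO mouse C both left out it was 10 (375), and with DESeq2 it was 14 (1459). Tnfrsf12a and Vegfa kept their calls in all of these fits, Myc in all but those without RC/RC mouse B (both fits) or C, Junb in 4 of 8 that left out 1 mouse and Nnmt in 3 of 8. Nnmt also lost its call with library size scaling and with limma. The RC/RC mice are shared with the comparison against WT.

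Junb, which encodes an AP-1 subunit, had medians of 19.8 CPM in WT, 57.8 CPM in RC/RC and 26.2 CPM in RC/RC:Casp1KO mice, and the lowest RC/RC mouse (49.8 CPM) lay above the highest mouse of the other groups (43.2 CPM). Myc was 3.44 to 7.24, 11.3 to 19.6 and 4.49 to 8.10 CPM in the same order, and here mouse C, at 6.90 CPM, lay among its group. Lcn2, which encodes the tubular injury marker NGAL, was 0.857 to 2.38, 49.5 to 106 and 4.66 to 62.9 CPM, and mouse C gave the highest value of its group. In RC/RC:Casp1KO against WT, 0 targets were called higher by edgeR (4 by DESeq2) and 3 lower (Pim3, -0.97; Bcl2l1, -0.46; Cebpb, -1.30), where 1.13% and 0.893% of all genes tested were, and the median was 0.28 (0.14 without mouse C), against 0.01 over all genes. The Bcl2l1 call was lost in 4 of 7 other settings and the Cebpb call with all 12 mice in one fit. Leaving out 1 mouse gave 0 to 3 lower calls, 0 without WT mouse A or RC/RC:Casp1KO mouse D and 1 without WT mouse B or D or RC/RC:Casp1KO mouse B or C. Over all genes these fits gave 49 to 242 lower calls, against 137 with all mice, and DESeq2 gave 736 higher calls. The STAT-type letters stood in 5 of 30 promoters of 25 targets with an entry (Fga, Fgb, Icam1, Irf1 and Socs3) and the AP-1-type letters in 1 (Fgb), against 8.30% and 7.81% of all promoters.

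**Figure D4:**
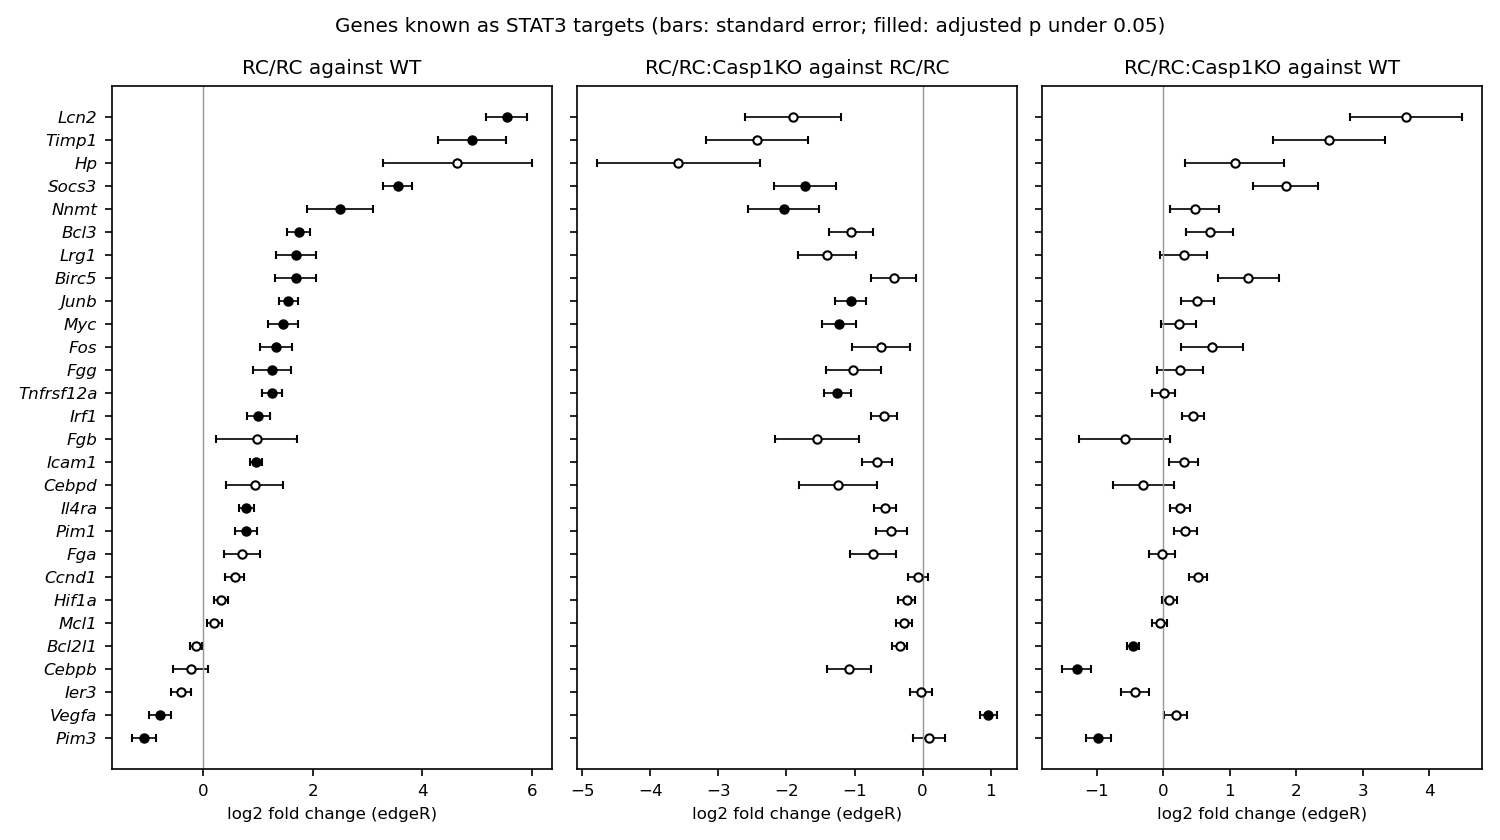
log2 fold change of each tested STAT3 target in each comparison, in order of the RC/RC against WT value, with bars for the standard error and filled points for an adjusted p under 0.05. In RC/RC against WT 16 of 28 are called higher; in RC/RC:Casp1KO against RC/RC 26 of 28 lie below 0 and 5 are called lower.

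Cytokines that can induce IL-6 family ligands were partly higher too. Of 5 tested in RC/RC against WT, Il1b (1.51, edgeR adjusted p = 0.0141), Il33 (1.54, edgeR adjusted p = 0.00529) and the receptor gene Il1r1 (1.02, edgeR adjusted p = 0.00533) rose, where 9.76% of all genes tested were called higher. Il18, like Il1b a substrate of caspase-1 at the protein level, had a log2 fold change of 0.83 (edgeR adjusted p = 0.0660). Il33 fell in RC/RC:Casp1KO against RC/RC (-1.48, edgeR adjusted p = 0.0167). Its edgeR adjusted p was 0.0502 without RC/RC:Casp1KO mouse B and 0.0511 without mouse D of that group. Without RC/RC mouse B, Il33 was still called in both comparisons, at 1.20 against WT and -1.14 in RC/RC:Casp1KO against RC/RC. Il1b averaged 2.97 against 3.07 CPM (log2 fold change -0.06, edgeR adjusted p = 0.935). That value was -0.54 without RC/RC:Casp1KO mouse C (edgeR adjusted p = 0.313), 0.07 without RC/RC mouse B and -0.38 without both.

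The lists were then read in RC/RC:Casp1KO against WT, where edgeR called 2.03% of all genes tested. Of all genes tested, 21.8% had an unadjusted p under 0.05, and DESeq2 called 1366 genes. None of the 3 other ligands and receptors tested was called by edgeR, 0 had an unadjusted p under 0.05 and DESeq2 called 0. Of 4 other STAT genes edgeR called 0, 1 had an unadjusted p under 0.05 (Stat2, 0.57) and DESeq2 called 1. Of 15 negative regulators edgeR called 0, 3 had an unadjusted p under 0.05 (Socs3, Ptpn2 and Socs6) and DESeq2 called 1. Of 5 upstream cytokine genes edgeR called 0, 2 had an unadjusted p under 0.05 (Il1r1 and Il1b) and DESeq2 called 1.

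Cell markers moved with these results. In RC/RC against WT, 4 of 4 leukocyte, 6 of 7 macrophage and dendritic, 4 of 5 T cell, 4 of 4 B cell, 6 of 6 fibroblast and pericyte, and 6 of 6 injured tubule markers were called higher, and 2 of 5 proximal tubule markers were called lower, where 9.76% of all genes tested were called higher and 3.18% lower. Summed levels in WT, RC/RC and RC/RC:Casp1KO kidneys averaged 52.2, 135 and 87.8 CPM for leukocyte markers (most abundant Laptm5) and 399, 1035 and 807 CPM for macrophage and dendritic markers (Cd74). They averaged 265, 991 and 376 CPM for fibroblast and pericyte markers (Col1a2), 146, 421 and 227 CPM for injured tubule markers (Krt8), and 9557, 5335 and 9723 CPM for proximal tubule markers (Slc34a1). T cell, B cell and neutrophil markers were low, at 17.0, 7.24 and 4.81 CPM in RC/RC. In RC/RC:Casp1KO against RC/RC, 4 of 6 fibroblast and pericyte, 2 of 7 macrophage and dendritic, 1 of 4 leukocyte, 1 of 4 B cell and 1 of 6 injured tubule markers were called lower, and 2 of 5 proximal tubule markers higher, where 4.41% and 7.23% of all genes tested were. Endothelial, collecting duct and podocyte markers averaged 366, 743 and 521 CPM in WT, against 446, 977 and 449 CPM in RC/RC kidneys. Thick ascending limb and distal convoluted tubule markers (most abundant Umod) averaged 6297, 3974 and 5182 CPM in WT, RC/RC and RC/RC:Casp1KO kidneys, and 1 of 4, Slc12a3, was called lower in RC/RC against WT and higher in RC/RC:Casp1KO against RC/RC. Adrenal, liver and skeletal muscle markers averaged 3.37, 115 and 1.08 CPM in WT, against 2.88, 62.9 and 1.13 CPM in RC/RC kidneys. No marker gene was at 0 in all mice, but the neutrophil gene Ly6g had 4 reads in total; Adgre1 was not analysed here. Lcn2 is both an injured tubule marker and a listed STAT3 target. The part of these markers in the differences of Lif, Osmr, Stat3 and their targets was not tested.

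**Figure D5:**
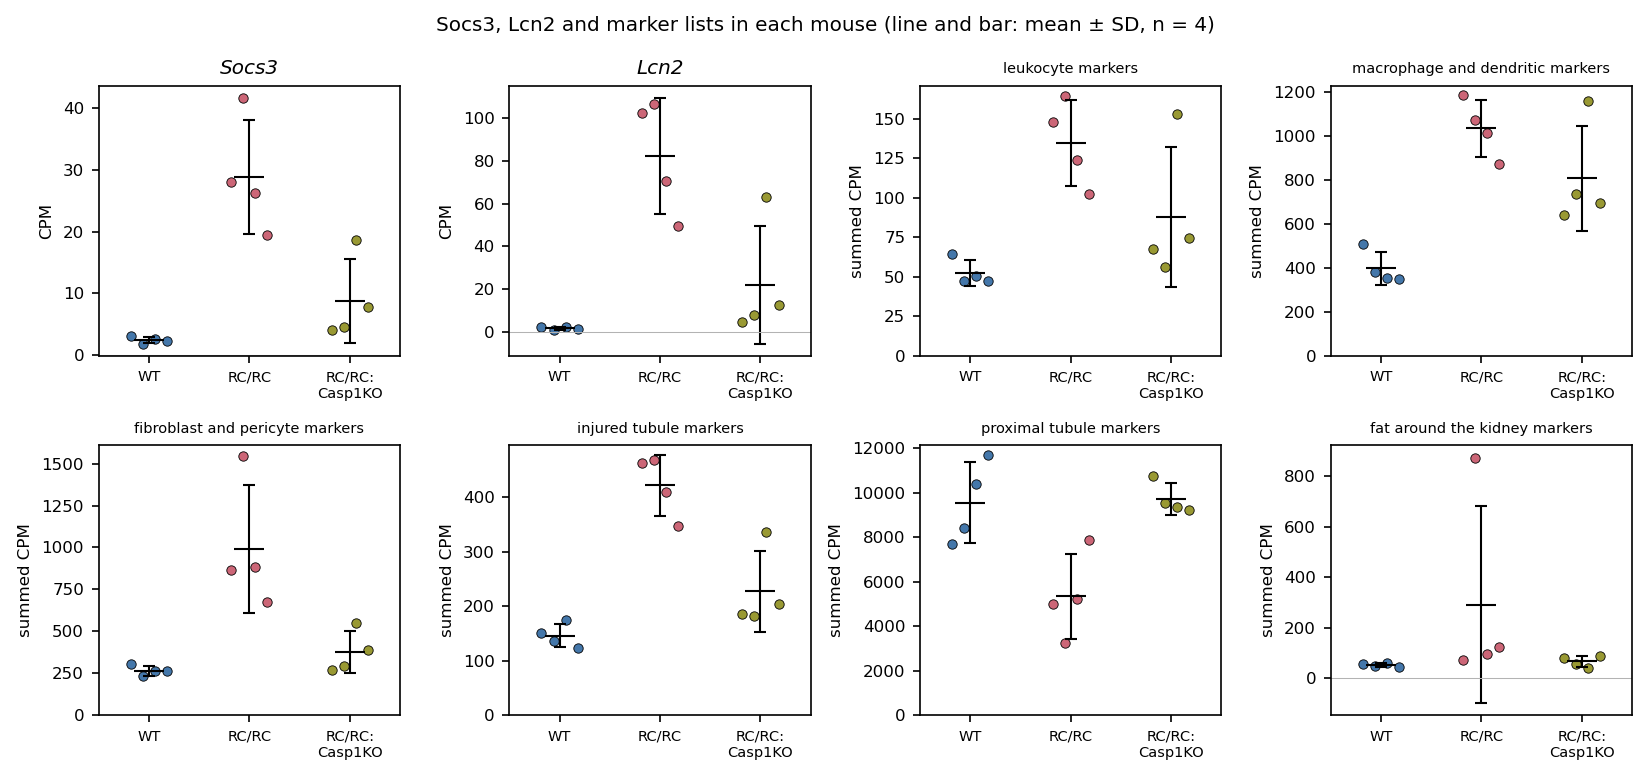
CPM of Socs3 and Lcn2 and the summed CPM of 6 marker lists in each mouse, by group; the line and bar are the mean ± SD (n = 4). RC/RC:Casp1KO mouse C is the highest of its group for Socs3, Lcn2 and the leukocyte, fibroblast and injured tubule markers, and RC/RC mouse B, at 875 CPM of fat markers, is the highest of all for Socs3 (41.7 CPM) and Lcn2 (106 CPM).

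Across the 12 mice, which span the 3 groups and so share the group differences, the genes most like Stat3 by Pearson's r of log2 CPM among 14495 genes were Slamf9 (0.98), 4632428N05Rik (0.98) and Cd14 (0.97). Those most like Osmr were Ltb, Fn1 and Nfatc4 (each 0.98). For Il6st they were Cd22 (0.93), Adamts1 (0.92) and Unc13d (0.92), and for Lifr Gm26873 and Slc39a14 (each 0.94). The group means of Fn1, the fibronectin gene, were 40.0, 172 and 91.7 CPM in WT, RC/RC and RC/RC:Casp1KO kidneys, in the order of the Osmr means of 11.3, 35.1 and 21.5 CPM. Those of Slc39a14, a zinc and iron transporter gene, were 59.4, 38.4 and 58.5 CPM, lowest in RC/RC as for Lifr. Both genes were picked for their correlation over the same mice, so the shared order is no separate observation.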

How the data were processed

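Poly(A) RNA of kidney tissue from 12 mice was sequenced. Per the submitters' processing notes base calls were made with CASAVA 1.8 and reads were aligned with STAR to mm10. The counting tool, annotation version and strand setting are not given in the sources used here. The authors deposited whole-number read counts per gene and mouse, with gene lengths and positions; these counts were used as deposited. The deposited FPKM columns and the columns of the authors' own comparisons, which hold fold changes and p-values, were not used; FPKM was computed here from the counts and the deposited gene lengths. Each pair of groups was compared on its 8 mice with edgeR 4.0.16 (R 4.3.3; TMM factors, filterByExpr, glmQLFit and glmQLFTest), with Benjamini-Hochberg adjustment over all genes tested and a threshold of 0.05. The SE was derived from the F statistic, and 95% intervals from the quasi-likelihood degrees of freedom. The code was tested on simulated data. CPM used TMM factors of all 12 libraries. The 2 members below the filter were given exact permutation tests. Alternatives used DESeq2 1.42.0, limma 3.58.1 on log2(FPKM + 1), other scalings and filters, all 12 mice in one fit, and leaving out each mouse. Named genes were all 10 members, Casp1 and Pkd1, and in each list the called genes or otherwise the 2 most abundant; Jak3, Shc1, Stat2, Ptpn2, Socs6, Osm, Il18, Slc12a3 and the targets given by range were added after their values were seen. The members and lists were chosen with earlier results of these data known; some genes of the lists and of those most alike are not reported here, and counts leave them out. Replicates were separate mice. Among all genes 10792 had no reads, and depth ranged from 18019819 to 24869454 counted reads. Counting limits cover counting error only.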

Additional observations from a re-analysis of the deposited data

How the results depend on the processing

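The 3 calls in RC/RC against WT (Lif, Osmr and Stat3) were made under every alternative, except that Lif could not be tested in either comparison with WT once at least 10 counts were required in every mouse; without a mouse, 3 to 4 members were called. The number of members called in RC/RC:Casp1KO against RC/RC was 2 with DESeq2, 1 without RC/RC mouse B and RC/RC:Casp1KO mouse C together, and 0 to 2 without a single mouse. For RC/RC:Casp1KO against WT it was 3 with DESeq2, 1 with all 12 mice in one fit and 0 to 1 without a single mouse. The number of all genes called ranged, without a single mouse, from 1162 to 2440 in RC/RC against WT, from 438 to 2789 in RC/RC:Casp1KO against RC/RC and from 108 to 547 in RC/RC:Casp1KO against WT. In the second comparison it was 3207 with DESeq2, 993 with library size alone, 1052 with limma and 914 with that pair of mice left out (an alternative chosen after seeing the data, as was leaving out each mouse for the gene lists). In the third it was 1366 with DESeq2 and 167 with at least 10 counts in every mouse. The cause was not tested.

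The differences that changed sign were all close to 0 with all mice. In RC/RC against WT they were Ptpn11 (0.084 with library size alone, 0.078 with limma, 0.0054 with at least 10 counts, -0.047 to 0.011 without a mouse), Stat6 (0.066 with library size alone, 0.067 with limma), Jak1 (-0.0041 to 0.047 without a mouse) and Pkd1 (-0.078 to 0.16 without a mouse). Those in RC/RC:Casp1KO against RC/RC were Il11ra1 (-0.19 to 0.040, the latter without that pair of mice), Ctf1 (-0.10 to 0.25, the latter without that pair of mice) and Il1b (0.072 without RC/RC mouse B). Those in RC/RC:Casp1KO against WT were Lifr (-0.00182 with DESeq2, -0.0021 with RLE factors, -0.032 to 0.074 without a mouse), Jak1 (0.10 with library size alone, 0.095 with limma, -0.073 to 0.0089 without a mouse), Ptpn11 (0.11, 0.098 and -0.071 to 0.0048 in the same order), Pias2 (0.051 with library size alone, 0.046 with limma), Ptpn1 (0.076, 0.062 and -0.12 to 0.039 without a mouse), Il6ra (-0.11 to 0.18 without a mouse) and Ctf1 (-0.084 to 0.20 without a mouse). Of the other alternative values for single named genes, 1113 kept direction and call, 103 lost a call and 10 gained one.

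No paired analysis was possible because the columns carry mouse numbers and not the replicate numbers of the labels. At this depth Il6 had 3 reads or fewer in all but 3 mice.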
